A study of Mus musculus with 6 samples.

Results

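miR-21a-5p (miRBase identifier MIMAT0000530), the 5p arm of the mouse Mir21a hairpin, was examined in 6 small RNA libraries of mouse serum. It is 1 of 788 miRNAs that were listed in at least 1 library, and it was selected on these data, by its read count, which was the highest of all miRNAs in both NEBNext libraries. Its NEBNext counts and both contrasts with NEBNext are therefore given as a description, with no test. Each library was made with 1 of 3 commercial kits, NEBNext Multiplex from New England Biolabs, TruSeq v2 from Illumina or TailorMix v2 from Seqmatic, with 2 libraries for each kit. All 6 came from serum of healthy 129/SVj mice of both sexes, aged 2 to 9 months and sedated with tribromoethanol (250 mg/kg) before blood was taken by cardiac puncture, and the kit was the only labelled difference between groups. RNA was isolated from the serum of individual mice, but the labels only number the serum 1 and 2 within a kit. The spread between the libraries of a kit may therefore be technical, and the p-values cover no wider spread between samples.

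miR-21 is among the most abundant miRNAs of many mammalian cell types. Its level rises in inflammation and in many tumors, and it represses genes that restrain growth or promote cell death, among them Pdcd4. A mature miRNA recognises its targets mainly through the seed, bases 2 to 8 from its 5′ end. In a small RNA library an adaptor is ligated to each end of the miRNA, so that a read normally spans the whole molecule and the count of a miRNA does not scale with its length.

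The mature sequences below were taken from RefSeq (GRCm38.p6) and are written 5′ to 3′ with the seed in capitals. They show what a count of miR-21a-5p can and cannot be told apart from, and how its ends compare with those of miR-16-5p, an abundant miRNA of blood.
miR-21a-5p: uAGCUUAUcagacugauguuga
miR-21a-3p: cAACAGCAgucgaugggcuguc
miR-21b: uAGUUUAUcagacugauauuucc
miR-21c: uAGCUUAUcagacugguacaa
miR-16-5p: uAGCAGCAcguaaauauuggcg

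Mature miR-21a-5p lies on chr11:86584120-86584141, minus strand, and miR-21a-3p, the other arm of the hairpin, on chr11:86584082-86584103. The hairpin (chr11:86584067-86584158) is inside the 3′ end of Vmp1, a gene for a membrane protein of autophagy. GENCODE release M21 places it in exon 12 of Vmp1, within the part annotated as UTR and on the same strand. Of 1679 mature mouse miRNAs in the RefSeq table, 2 had the seed of miR-21a-5p, itself and miR-21c (chr8:128278188-128278208). miR-21c was identical to miR-21a-5p over its first 15 bases and first differed by A16G, counted from 1 at the 5′ end with the base of miR-21a-5p first. The authors kept reads of at least 15 bp and mapped them without mismatches, so a read cut back to its first 15 bases would match both loci, whereas a full-length read would not. miR-21b (chr3:29636768-29636790) differed within the seed, by C4U. miR-16-5p began with the same 4 bases as miR-21a-5p, first differed by U5A, and shared no base with it at the 3′ end. With miR-21a-5p and miR-16-5p included, 23 of the 1679 mature miRNAs (1.37%) began with these 4 bases. miR-21a-5p ended in uuga and had 8 G or C among its 22 bases. A GC content this low or lower was found in 10.2% of the mature miRNAs.

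With NEBNext, miR-21a-5p was the most abundant miRNA and took a mean of 8.73% of miRNA reads, whereas with TruSeq and TailorMix it ranked 10th or 11th. Replicates 1 and 2 had 19914 and 14219 reads of it with NEBNext, 8587 and 6241 reads with TruSeq, and 3778 and 3594 reads with TailorMix, and pairs of values below keep this order of replicates. These counts rest on miRNA totals of 165139 to 351758 reads per library and on 5144833 to 26256012 annotated reads, which are the miRNA reads plus the reads listed under tRNA, rRNA, snRNA, snoRNA or piRNA. The NEBNext libraries were thus the highest and the TailorMix libraries the lowest in raw counts, with no overlap between kits.

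As a share of miRNA reads, miR-21a-5p took 8.86% (95% Wilson interval 8.74% to 8.97%) and 8.61% (8.48% to 8.75%) in the NEBNext libraries. The TruSeq libraries had 2.44% (2.39% to 2.49%) and 2.21% (2.16% to 2.27%), and the TailorMix libraries 1.95% (1.89% to 2.02%) and 1.83% (1.77% to 1.89%). The intervals cover counting error only, since the reads carry no molecular identifiers and several can stem from the same molecule. The mean was 8.73% ± 0.174 for NEBNext, followed by 2.33% ± 0.162 for TruSeq and 1.89% ± 0.0901 for TailorMix (SD, n = 2 each). The NEBNext mean was 3.75 times the TruSeq mean and 4.62 times the TailorMix mean. The order NEBNext, TruSeq, TailorMix held for every pair of libraries. The 2 neighbours at the lower end, TruSeq and TailorMix, were separated by 0.260 percentage points at their closest, which was more than the SD of either kit, and the 2 libraries of a kit differed by 0.127 to 0.246 percentage points.

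The rank of miR-21a-5p was 1 in both NEBNext libraries, 10 and 11 with TruSeq, and 11 in both TailorMix libraries. In the NEBNext libraries the second miRNA had 9773 and 7609 reads, so that miR-21a-5p exceeded it 2.04-fold and 1.87-fold. At its lower ranks miR-21a-5p had close neighbours. In TruSeq replicate 1 the next higher and next lower miRNA had 9666 and 8372 reads, and in TailorMix replicate 2 they had 3869 and 3572 reads beside 3594 of miR-21a-5p. Leading the NEBNext list took a smaller share than leading the other lists. The first miRNA took 18.4% and 20.1% of miRNA reads with TruSeq and 15.7% and 15.6% with TailorMix, between 7.56 and 9.08 times the reads of miR-21a-5p in the same library. The miRNAs ranked above miR-21a-5p together held 64.2% to 69.1% of miRNA reads in these 4 libraries. Reads were spread over more miRNAs with NEBNext, where the first 14 and 13 miRNAs were needed to reach 50% of miRNA reads, against 5 for either TruSeq library and 6 for either TailorMix library.

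**Figure D1:**
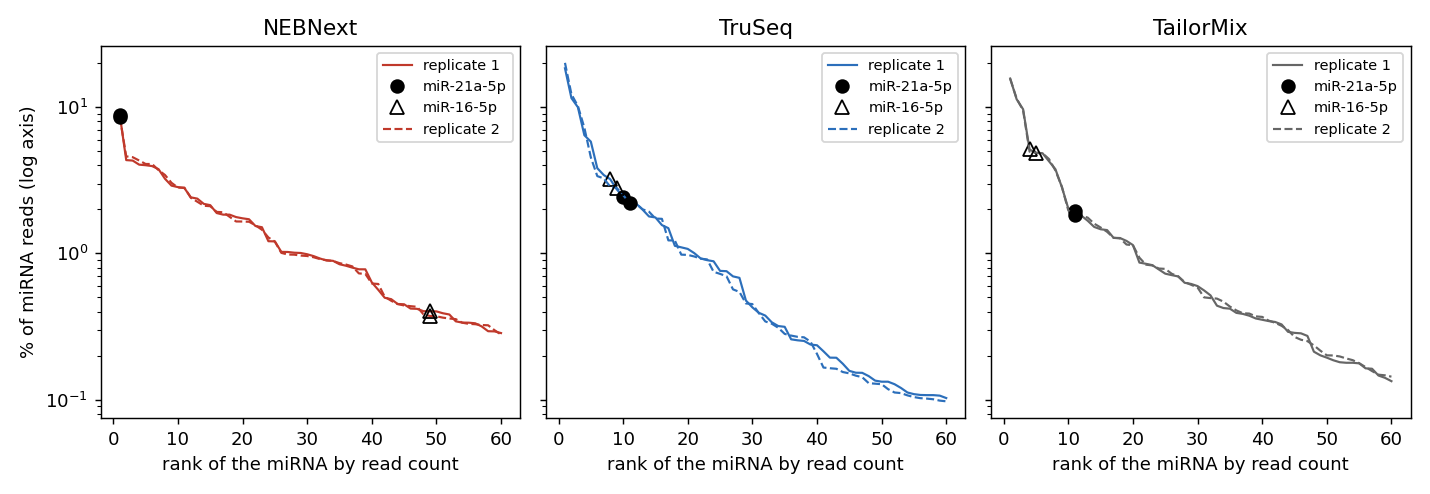
Share of miRNA reads (%, log axis) against rank for the 60 most abundant miRNAs of each library, with 1 panel per kit and 1 line per replicate, where filled circles mark miR-21a-5p and open triangles miR-16-5p. miR-21a-5p sits at rank 1 with NEBNext and at rank 10 or 11 with the other kits, while miR-16-5p moves from rank 49 with NEBNext to ranks 4 to 9.

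Set against all annotated reads, the difference between kits was much smaller. Counted per 1000000 annotated reads (RPM), miR-21a-5p stood at 758 and 837 RPM with NEBNext, at 739 and 663 RPM with TruSeq and at 734 and 678 RPM with TailorMix. The means were 798 ± 55.7, 701 ± 53.9 and 706 ± 39.8 RPM (SD, n = 2 each). Both NEBNext libraries were still above the other 4, but by 19.5 RPM at the closest, less than the SD of any kit, and their mean was 1.14 times the TruSeq mean and 1.13 times the TailorMix mean. TruSeq and TailorMix overlapped. The 2 scales are tied by the miRNA share of annotated reads, which averaged 0.914% ± 0.0820 for the NEBNext libraries, 3.01% ± 0.0223 for TruSeq and 3.74% ± 0.0325 for TailorMix (SD, n = 2 for each kit). NEBNext thus combined the lowest miRNA share of annotated reads with the highest share of miR-21a-5p among miRNA reads. Which of the kits is closer to the amount in serum cannot be told from these libraries, because they hold no RNA of known amount.

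Annotated reads were almost all tRNA fragments, so this scale is close to the ratio of miR-21a-5p to tRNA reads. The NEBNext libraries held 1304 and 1179 tRNA reads for each read of miR-21a-5p, the TruSeq libraries 1310 and 1461, and the TailorMix libraries 1300 and 1409. NEBNext overlapped with TailorMix and TailorMix with TruSeq, whereas NEBNext and TruSeq did not overlap. Single tRNA fragment sequences were often more abundant than miR-21a-5p. More reads were counted on 47 and 49 tRNA sequences with NEBNext, on 82 and 89 with TruSeq and on 62 and 63 with TailorMix. No listed rRNA, snRNA, snoRNA or piRNA sequence exceeded it in any library. Compared with whole classes, miR-21a-5p alone had 7.24 and 6.65 times the reads of all snoRNA sequences together with NEBNext, 4.33 and 4.01 times with TruSeq, and 2.03 and 1.88 times with TailorMix. Against all rRNA fragments it had 3.41 and 2.88 times the reads with NEBNext and 2.58 and 1.86 times with TruSeq, but 0.403 and 0.368 times with TailorMix. The other 2 classes gave another order of the kits, with TruSeq highest. For all snRNA sequences together the ratio of miR-21a-5p to their reads was 2.22 and 1.74 for NEBNext, 8.94 and 6.65 for TruSeq and 0.802 and 0.755 for TailorMix. Reads annotated as piRNA outnumbered miR-21a-5p in all 6 libraries, and its ratio to them was 0.544 and 0.400 for NEBNext, 0.824 and 0.672 for TruSeq and 0.157 and 0.156 for TailorMix.

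miR-16-5p, which is abundant in red blood cells and is often used as a reference in serum, had the reverse order of kits by share of miRNA reads, with 0.402% and 0.374% for NEBNext, 3.22% and 2.81% for TruSeq and 5.14% and 4.89% for TailorMix. Its 904 and 617 NEBNext reads compare with 11322 and 7921 reads for TruSeq and 9944 and 9634 reads for TailorMix. The NEBNext libraries had 22.0 and 23.0 reads of miR-21a-5p for each read of miR-16-5p. With TruSeq the ratio was 0.758 and 0.788, and with TailorMix 0.380 and 0.373. Which of the 2 miRNAs was more abundant therefore differed between kits, and the libraries of a kit differed by far less than the kits. The labels do not state whether all kits received the same sera, so kit and serum cannot be told apart. The mean ratio with NEBNext was 29.1 times that with TruSeq and 59.9 times that with TailorMix, while the libraries of a kit had a coefficient of variation of 1.29% to 3.19%. On the scale of annotated reads most of this contrast lay in miR-16-5p, whose level averaged 35.4 ± 1.34, 908 ± 94.1 and 1875 ± 81.5 RPM of annotated reads with NEBNext, TruSeq and TailorMix (SD, n = 2 each).

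**Figure D2:**
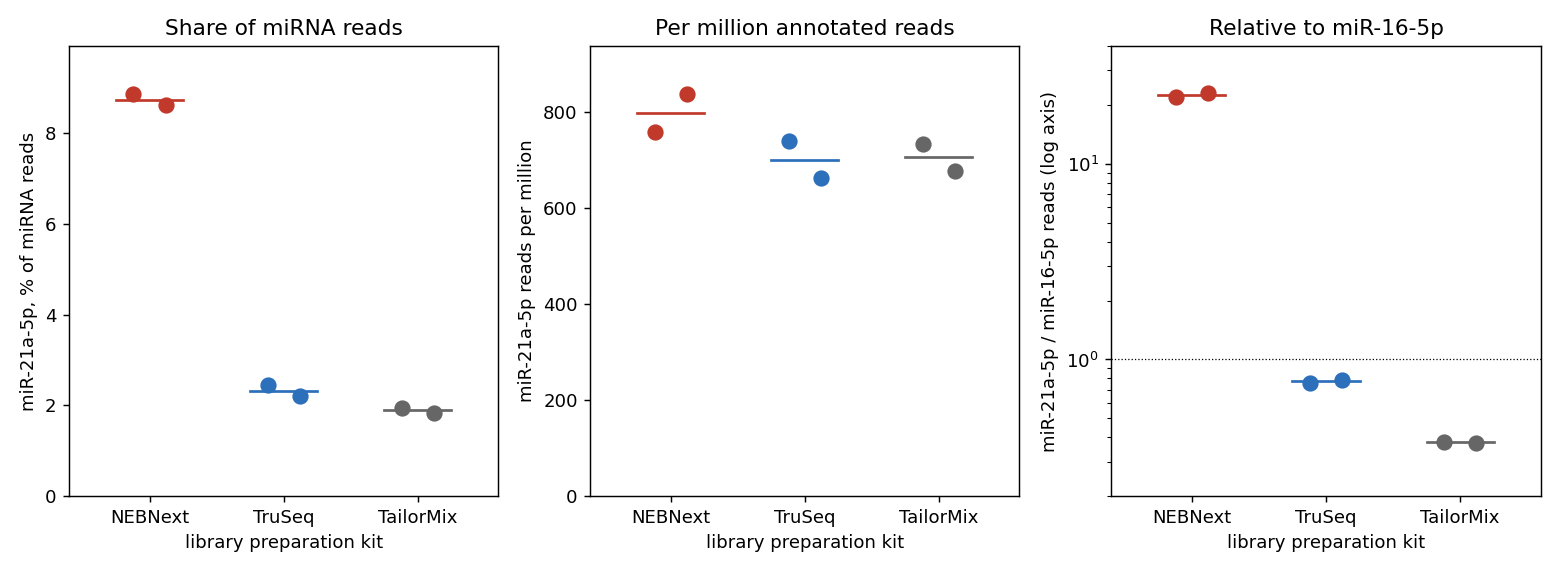
miR-21a-5p in each library (points) with the mean of each kit (horizontal lines), as percent of miRNA reads, as RPM of annotated reads and as the ratio to miR-16-5p reads (log axis, dotted line at a ratio of 1). The NEBNext libraries lie near 8.73% against 2.33% and 1.89% in the first panel, between 758 and 837 against 663 to 739 in the second, and near 22.5 against 0.773 and 0.376 in the third.

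The difference between TailorMix and TruSeq was tested across all 360 miRNAs that reached 4 counts in 2 or more libraries. miR-21a-5p was chosen by its NEBNext counts, but earlier results of these data were known, so the test is not fully independent of the choice. The fit also takes its scaling and spread from all 6 libraries, NEBNext included, and draws the spread of each miRNA towards that of the others. With edgeR's quasi-likelihood test and TMM scaling, which sets each library so that most miRNAs are taken as unchanged, miR-21a-5p was lower with TailorMix (log2 fold change -0.72, standard error 0.094, 95% interval -0.91 to -0.53, Benjamini-Hochberg adjusted p = 3.62e-08). This is 1.65 times less. The CPM values after TMM were 35643 and 30092 with TruSeq and 20614 and 19295 with TailorMix, without overlap. A difference past the threshold was common between these kits: 70.6% of the miRNAs tested were called, 28.9% as lower and 41.7% as higher with TailorMix. In numbers, 104 were lower and 150 higher under TMM, and 78 were lower and 187 higher on total annotated reads. By these calls most miRNAs differed, whereas TMM takes most as unchanged. By size, the change of miR-21a-5p was 295th of 360 under TMM. On total miRNA reads without scaling factors its log2 fold change was -0.30. On the share of miRNA reads, the exact permutation test gave p = 0.333 (two-sided, 2 libraries against 2), the smallest p this design can give. With total annotated reads as library size the log2 fold change was 0.011 (adjusted p = 0.946), so that neither the direction nor the call held on that scale, on which the median miRNA was higher with TailorMix by 1.23 against 0.50 under TMM.

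In the contrasts with NEBNext, the log2 fold change of miR-21a-5p after TMM was 0.84 ± 0.094 for NEBNext minus TruSeq and 1.56 ± 0.096 for NEBNext minus TailorMix (± standard error). Both contrasts use the NEBNext counts by which it was chosen, so they carry no p. miR-21a-5p was not among the miRNAs that differed most. Of 360 miRNAs ordered from the highest log2 fold change it was 170th in NEBNext minus TruSeq and 119th in NEBNext minus TailorMix. Among the 135 miRNAs with a mean of at least 50 counts it was 61st and 47th, inside the middle 50% of values, which ran from -1.66 to 2.82 and from -1.84 to 2.13. In these contrasts 68.6% and 77.5% of all miRNAs tested were called, 42.5% and 38.3% as higher with NEBNext and 26.1% and 39.2% as lower. The split moved with the scaling: in NEBNext minus TruSeq 153 were higher and 94 lower under TMM, 191 and 61 on total miRNA reads, and 128 and 134 on annotated reads. In NEBNext minus TailorMix these pairs were 138 and 141, 172 and 108, and 64 and 188. The scale set the size of the difference. On total miRNA reads without scaling factors it was 1.91 and 2.21, and on total annotated reads 0.19 and 0.18, with medians over all miRNAs tested of 0.52 and 0.24 under TMM, 1.48 and 0.88 on miRNA reads, and 0 and -1.10 on annotated reads.

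**Figure D3:**
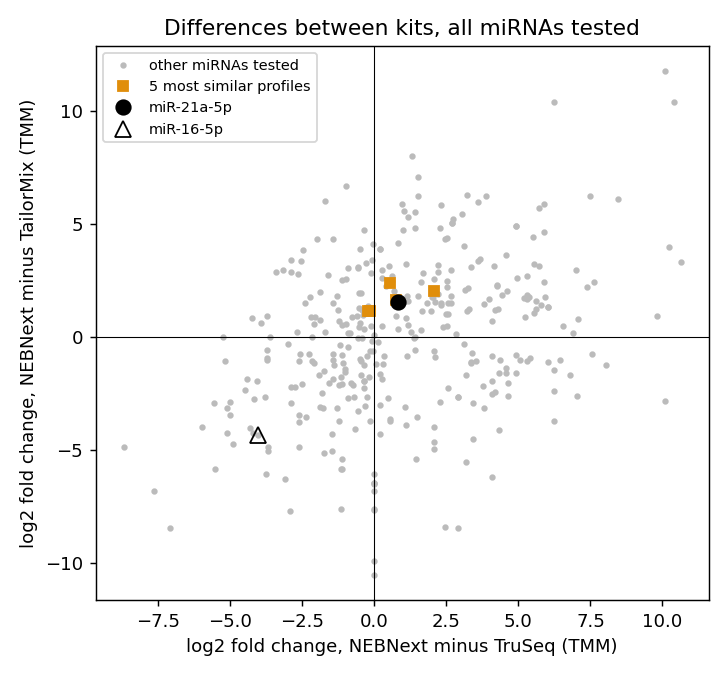
Log2 fold change of NEBNext minus TailorMix against that of NEBNext minus TruSeq for 360 miRNAs (edgeR, TMM), with miR-21a-5p as a filled circle, miR-16-5p as an open triangle and the 5 miRNAs of the most similar profile as squares. miR-21a-5p lies at 0.84 and 1.56, within the main cloud, and miR-16-5p at -4.03 and -4.34, and points far from the centre include miRNAs at or near 0 counts in a kit, whose fitted values depend on the prior count.

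**Figure D4:**
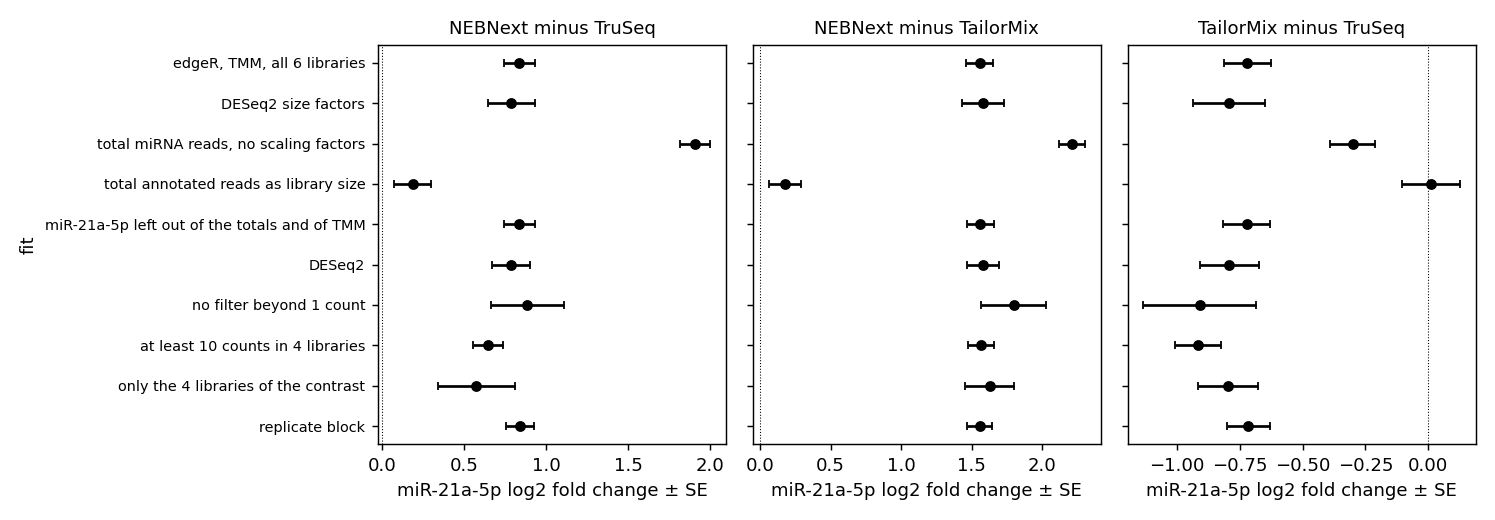
Log2 fold change of miR-21a-5p (points, with bars of 1 standard error) in 3 contrasts between kits under 10 fits. Under TMM the values are 0.84, 1.56 and -0.72, and with total annotated reads as library size they move to 0.19, 0.18 and 0.011.

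The profile of miR-21a-5p over the 6 libraries was compared with those of 134 other miRNAs with a mean of at least 50 counts, as the root mean square difference of log2 TMM CPM after subtracting each miRNA's mean. The most similar miRNA was MIMAT0000133, at a difference of 0.0882. Its reads numbered 940 and 720 for NEBNext, 467 and 302 for TruSeq and 176 and 161 for TailorMix, and its log2 fold changes were 0.75 in NEBNext minus TruSeq and 1.65 in NEBNext minus TailorMix. The second, MIMAT0000248, already differed by 0.421 and the fifth by 0.506, against a median of 1.51 over all 134. miR-16-5p was 112th, with 2.57. The likeness rests on 6 libraries that share 3 kits. The deposited lists give miRBase identifiers only, and no table used here pairs them with names beyond miR-21a-5p and miR-16-5p. Counts of miR-21a-3p, miR-21b, miR-21c and of other miRNAs of blood cells, liver or inflammation were for this reason not analysed here. miR-16-5p was present in all 6 libraries, which alone does not check the serum label.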

How the data were processed

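The authors deposited raw read counts per mature miRNA (miRBase release 20 identifiers) and per distinct sequence of other small RNAs, 1 pair of lists per library. Before that they trimmed adaptors (Cutadapt 1.8.1), dropped reads under 15 bp, required a quality score of 20 in 80% of bases and mapped with Bowtie 1.1.2 without mismatches to GRCm38. A miRNA without reads is not listed and was taken as 0. Kit and replicate number came from the sample titles. miR-21a-5p and the lists considered were chosen with earlier results of these data known.

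Shares, ranks, Wilson intervals and exact permutation tests were computed with Python 3.11.15, pandas 2.3.3 and scipy 1.17.1. The floor of 3 counts corresponds to 0.000853% to 0.00182% of a library's miRNA reads. miRNAs that reached 4 counts in 2 or more libraries were fitted with edgeR 4.0.16 (glmQLFit, glmQLFTest, R 4.3.3) over all 6 libraries, with TMM, kit as the only term, and Benjamini-Hochberg adjustment. Standard errors are the absolute log2 fold change divided by the square root of F. DESeq2 1.42.0, other scalings and filters, the replicate block and libraries left out were alternatives. Both libraries of a kit were used as samples, following the labels. The chi-square of their miRNA counts per degree of freedom was 2.16 for NEBNext, 15.0 for TruSeq and 1.59 for TailorMix, which does not show whether they are separate sera.

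Named are miR-21a-5p, miR-16-5p and, of the 5 miRNAs with the most similar profile, the first 2. The leading miRNAs of each kit are given by rank, since their identifiers have no name here. Lists of circulating and inflammation miRNAs, groups by end bases, the seed family and miR-21a-3p had been planned and could not be matched to identifiers.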

Additional observations from a re-analysis of the deposited data

How the results depend on the processing

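In 8 of 9 alternatives with both libraries of each kit compared, miR-21a-5p was lower with TailorMix than with TruSeq (adjusted p under 0.05). The log2 fold change in these 8 was -0.92 to -0.30, and all of them scaled within miRNA reads. With total annotated reads as library size it was 0.011 (adjusted p = 0.946), so the range of adjusted p was 2.04e-15 to 0.946. Leaving out 1 library gave -0.84 to -0.59. NEBNext minus TruSeq was 0.84 with TMM and moved to 1.91 on total miRNA reads, 0.19 on annotated reads, 0.65 with at least 10 counts in 4 libraries and 0.58 with only the 4 libraries of the contrast, and to 0.72 to 0.96 without single libraries. NEBNext minus TailorMix was 1.56 and moved to 2.21, 0.18 and, without a filter, 1.796, and to 1.56 to 1.76 without single libraries. Its sign never changed in either contrast. The replicate block gave 0.84, 1.56 and -0.72 (adjusted p = 2.04e-15) and changed no call of miR-21a-5p. Whether the serum numbers mark the same sera in all kits is not stated. Over 135 miRNAs the difference between replicates 1 and 2 correlated at -0.0393 to 0.0536 between kits, which does not show a pairing, while the share of miR-21a-5p, like that of miR-16-5p, was higher in replicate 1 of all 3 kits. The NEBNext share of 8.73% was 9.57% when miR-21a-5p was left out of the total, and 8.61% to 8.86%, 2.21% to 2.44% and 1.83% to 1.95% were the shares with 1 library per kit. Of all miRNAs, 153 were called higher and 94 lower in NEBNext minus TruSeq (132 to 159 and 79 to 95 without single libraries), 138 and 141 in NEBNext minus TailorMix (119 to 141 and 115 to 139), and 150 and 104 in TailorMix minus TruSeq (132 to 145 and 94 to 108). With at least 10 counts in 4 libraries, where 178 miRNAs were tested, 81, 76 and 76 were called higher in these contrasts and 78 lower in the second. On total miRNA reads 61 were lower in the first, with 191 higher, and on annotated reads 64 were higher in the second, with 188 lower. DESeq2 called 105 higher and 70 lower, 92 and 104, and 119 and 85. Where a value moved with a library left out, the cause was not tested. Each kit had only 2 libraries. The counting error of miR-21a-5p was 0.709% to 1.67% of its count if every read stems from a separate molecule, which was not tested.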
